A study of Homo sapiens with 20 samples.

Results

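The loci of 8 chemokine receptor genes, CCR1, CCR2, CCR7, CXCR1, CXCR2, CXCR4, CX3CR1 and CCRL2, were examined for binding of the transcription factor RUNX1. A RUNX1 peak belonged to these loci when it lay within 50 kb of the RefSeq span of one of the genes in the human genome build GRCh38. By this rule 23 of the 26642 peaks were members, 17 on chromosome 3, 4 on chromosome 2 and 2 on chromosome 17. Binding was measured by chromatin immunoprecipitation with sequencing (ChIP-seq) in THP-1 cells, a human line grown from an acute monocytic leukemia. All cells received doxycycline, which switched on a shRNA against the transcription factor PU.1 in the knockdown cells and a scramble shRNA in the control cells. Each group held 6 RUNX1 libraries, made in 2 experimental rounds that the labels call batches. Control libraries were split 3 and 3 over batches 1 and 2, and knockdown libraries 2 and 4. The 4 control and 4 knockdown libraries made with an unspecific IgG antibody were not analysed here. ChIP-seq does not measure transcripts, so neither the PU.1 level nor the monocytic markers of the line could be checked in these libraries.

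Chemokine receptors are membrane proteins that couple to G proteins and steer leukocytes along gradients of chemokines, small secreted proteins. Monocytes use CCR2 to leave the bone marrow, CX3CR1 to attach to and patrol vessels, and CCR1 to enter inflamed tissue, while CXCR4 holds blood cells in the marrow. CXCR1 and CXCR2 are the interleukin-8 receptors best known from neutrophils, CCR7 guides dendritic cells and T cells to lymph nodes, and CCRL2 is an atypical receptor that binds the attractant chemerin without signalling of its own. RUNX1 recognises a short core sequence, TGTGGT or TGCGGT, and PU.1, an ETS family factor that directs myeloid differentiation, recognises a GGAA core.

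The sequence before the start of 3 of the genes is shown because the CCR1 start was the only start of the 8 genes covered by a peak, CCR2 had a peak nearby but no RUNX core in its window, and CXCR1 lay beside the peak with the strongest gain. Each line gives the 250 bases before the annotated start, 5′ to 3′ on the strand of the gene, from RefSeq on GRCh38.p14, with a RUNX core in capitals (ACCACA is TGTGGT on the other strand). The CCR1 window is chr3:46208314-46208563 on the minus strand, the CCR2 window chr3:46353861-46354110 on the plus strand and the CXCR1 window chr2:218166963-218167212 on the minus strand.
CCR1: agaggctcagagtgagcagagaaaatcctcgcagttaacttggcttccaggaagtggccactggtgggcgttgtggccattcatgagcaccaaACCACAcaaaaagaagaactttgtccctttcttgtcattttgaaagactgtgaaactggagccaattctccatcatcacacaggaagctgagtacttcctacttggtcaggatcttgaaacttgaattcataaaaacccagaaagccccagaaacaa
CCR2: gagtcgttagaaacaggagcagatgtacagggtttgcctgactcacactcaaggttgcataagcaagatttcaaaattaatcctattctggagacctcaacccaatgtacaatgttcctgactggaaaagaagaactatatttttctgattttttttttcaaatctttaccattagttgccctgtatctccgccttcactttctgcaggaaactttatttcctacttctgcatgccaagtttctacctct
CXCR1: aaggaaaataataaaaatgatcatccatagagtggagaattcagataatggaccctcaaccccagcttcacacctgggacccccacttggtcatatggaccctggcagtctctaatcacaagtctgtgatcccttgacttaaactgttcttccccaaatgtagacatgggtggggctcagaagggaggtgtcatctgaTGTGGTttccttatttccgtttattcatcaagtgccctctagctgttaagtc

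The core began 157 bases before the start in CCR1 and 52 bases before it in CXCR1. Starts were listed for 7 of the 8 genes, with 12 windows in all. Searched on both strands, TGTGGT was found in the windows of CCR1, CCRL2, CXCR1 and CXCR2, and 11.0% of all 35116 windows of this length held it. TGCGGT was found in a window of CXCR4, against 5.84% of all windows. The ETS core GGAA stood in 11 of the 12 windows and in 92.7% of all windows. The longer GAGGAA, which is also counted as a GGAA match, stood in 4 of the 12 and in 23.6% of all windows. The C/EBP type TTGCNNAA was found at CCR2 and CCRL2, against 9.05% of all windows. A match describes the letters only, since 6 of these 7 genes had no peak over an annotated start.

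Depth within peaks was 630247 to 1199004 reads in the control and 938745 to 1719840 reads in the knockdown libraries. This left 18 to 34 reads (control) or 26 to 48 reads (knockdown) at the median peak, and counting error is large where a peak is weak. All levels below are normalised read counts, that is, raw reads in a peak divided by the size factor of the library, without scaling for peak width or subtraction of IgG. The log2 fold change is that of knockdown over control from DESeq2, fitted over all peaks with batch as a covariate, and its p-value was adjusted over all peaks by the Benjamini-Hochberg method. Gained and lost peaks are those with an adjusted p under 0.05 and a fold change over 1.1. The authors called peaks per condition in these same libraries and merged them. A site weak in control may thus have entered only through the knockdown libraries, and the reverse. At such a site the gain or loss is not independent of how the peak was found. Per the study's methods the replicates were separate immunoprecipitations and libraries of the cell line. The p-values measure the spread between these, not between separately made lines or different shRNAs. The study describes a PU.1-specific shRNA and a scramble control. A difference between the lines or an off-target effect of the shRNA thus cannot be told apart from loss of PU.1. In such bulk libraries, a site bound in fewer cells and a site bound less in each cell cannot be told apart.

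RUNX1 binding moved in both directions at the receptor loci. Of the 23 peaks, 11 were called, 5 gained and 6 lost, and without knockdown replicate 2 the calls were 3 gained and 5 lost. Of all peaks 42.0% were called, 21.3% gained and 20.7% lost, so 47.8% called among the members is close to the background and is not a result about this gene group. A change of over 2-fold was called at 6 members, against 17.1% of all peaks. All 4 called peaks at CX3CR1 and the 1 called peak at CCR1 were lost, while the called peaks at CCRL2 (2 peaks), CCR7 (1 peak) and CXCR2 (1 peak of its own and 1 shared with CXCR1) were gained. CXCR1 had 1 peak in each direction, and CCR2 and CXCR4 had no called peak. The median log2 fold change of the 23 peaks was 0.03, against -0.03 over all peaks, with single peaks from -1.95 to 1.46. Over all peaks in the 10 Mb around each member, the median ran from -0.09 to 0.05.

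**Figure D1:**
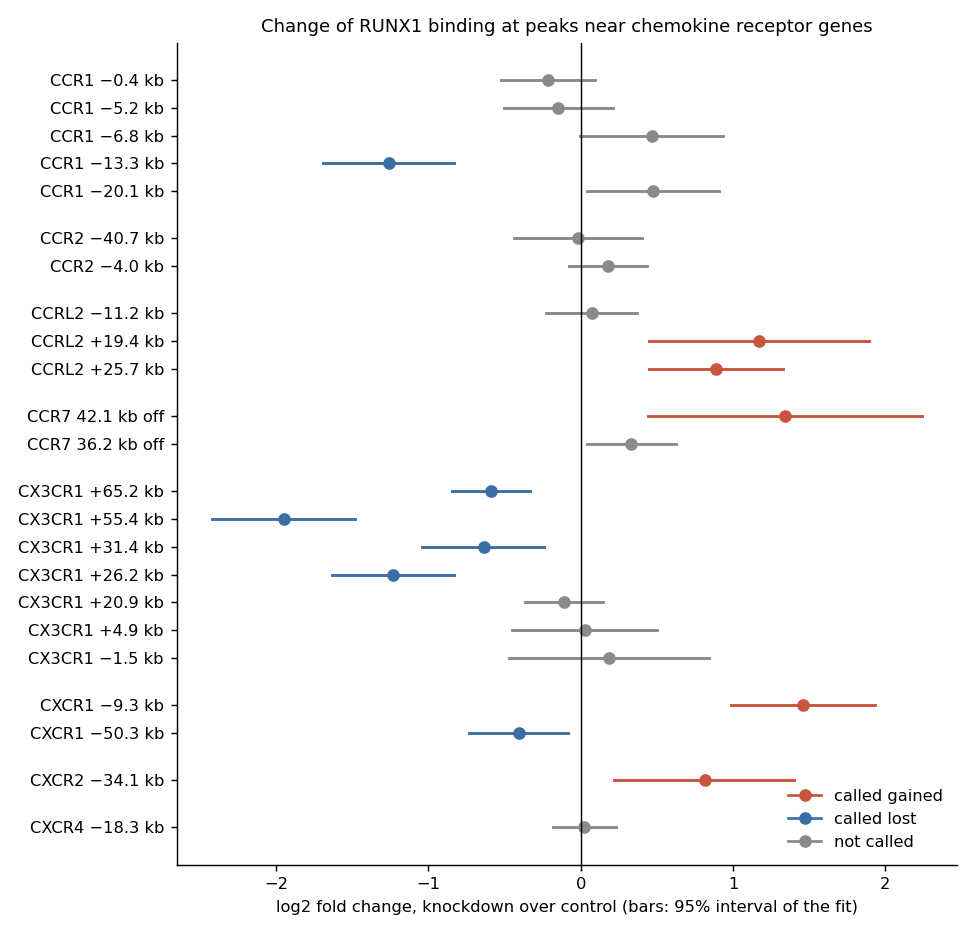
Log2 fold change of RUNX1 binding (x axis, knockdown over control) at each of the 23 peaks, named on the y axis by gene and by the distance of the peak centre from the most upstream annotated start of the gene (plus: in the direction of transcription) or, for CCR7, from its nearer end; points are DESeq2 estimates and bars their 95% intervals. The 4 lost peaks of CX3CR1 lie between -0.59 and -1.95, the gained peak beside CXCR1 at 1.46, and the intervals of the peaks nearest to CCR1, CCR2, CCRL2, CX3CR1 and CXCR4 cross 0.

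CX3CR1, the receptor for the membrane-bound chemokine fractalkine, had 7 peaks, the most of the 8 genes, and lost RUNX1 at the 4 of them that lay farthest beyond its 3′ end. The largest loss of all 23 peaks was 55.4 kb downstream of the start and 36.7 kb beyond the end of the gene. This peak (chr3:39225918-39226790, 873 bp) lay between genes, and DSTNP4, 11.2 kb away, was the nearest listed as protein-coding. Control libraries held 37.7 to 47.2 normalised reads at this peak (median 42.2) and knockdown libraries 3.56 to 15.8 (median 11.8). The lowest control library thus stood above the highest knockdown library by a wide margin, in both batches. The mean fell from 42.3 ± 4.05 (SD, n = 6) to 10.9 ± 4.38 (SD, n = 6), a log2 fold change of -1.95 (SE 0.24, DESeq2 adjusted p = 2.8e-14), or 3.85-fold.

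The peak 26.2 kb downstream of the CX3CR1 start (chr3:39254731-39256240, 1510 bp, within the non-coding RNA gene LOC102724104) had the next largest loss at this locus. Counts ranged from 36.3 to 72.8 (median 51.2) in control and from 17.7 to 28.4 (median 20.6) in knockdown libraries, with no overlap between the groups. The log2 fold change was -1.23 (SE 0.20, DESeq2 adjusted p = 2.1e-08). A neighbouring peak in the same non-coding gene, 31.4 kb downstream (chr3:39249765-39250942), ranged from 32.3 to 69.4 (median 51.3) in control and from 23.0 to 42.9 (median 33.2) in knockdown libraries. Here the groups overlapped, and the fall was smaller, with a log2 fold change of -0.64 (SE 0.20, DESeq2 adjusted p = 0.0058). The most distant peak, 65.2 kb downstream (chr3:39216064-39217069), 1392 bp from DSTNP4, a gene that RefSeq lists as protein-coding, had the second highest counts of the locus. It held 72.8 to 126.6 reads (median 106.0) in control and 60.6 to 81.6 (median 65.3) in knockdown libraries, and 1 control library of batch 2 lay within the knockdown range. Its log2 fold change was -0.59 (SE 0.13, DESeq2 adjusted p = 4.7e-05).

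The 3 peaks within or next to CX3CR1 were not called. The strongest peak of the locus, 1938 bp beyond the end of the gene and 20.9 kb from its start (chr3:39260165-39261556), held 96.1 to 120.8 reads (median 108.5) in control and 77.7 to 143.7 (median 98.9) in knockdown libraries. The control range lay inside that of the knockdown libraries. Its log2 fold change was -0.11 (SE 0.13, 95% interval -0.36 to 0.15, DESeq2 adjusted p = 0.537). This interval, from the fit over both batches, leaves out the estimate of each of the 4 lost peaks of the locus. It overlaps the intervals of the lost peaks 65.2 kb (-0.844 to -0.331) and 31.4 kb (-1.04 to -0.24) downstream. The peaks were not tested against each other. In batch 1 alone the knockdown libraries (77.7 and 90.4) lay below the control libraries (110.6 to 120.8), with a log2 fold change of -0.432 (SE 0.238). In batch 2 the groups overlapped (0.138, SE 0.171). The peaks 4.9 kb downstream and 1.5 kb upstream of the start, both inside the RefSeq span, which begins before the listed starts, were weak. Their means were 22.1 and 11.1 in control and 23.5 and 13.1 in knockdown libraries, with log2 fold changes of 0.03 (SE 0.24) and 0.19 (SE 0.33). The 95% intervals, -0.449 to 0.502 and -0.469 to 0.841, are wide and do not leave out a moderate change in either direction.

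**Figure D2:**
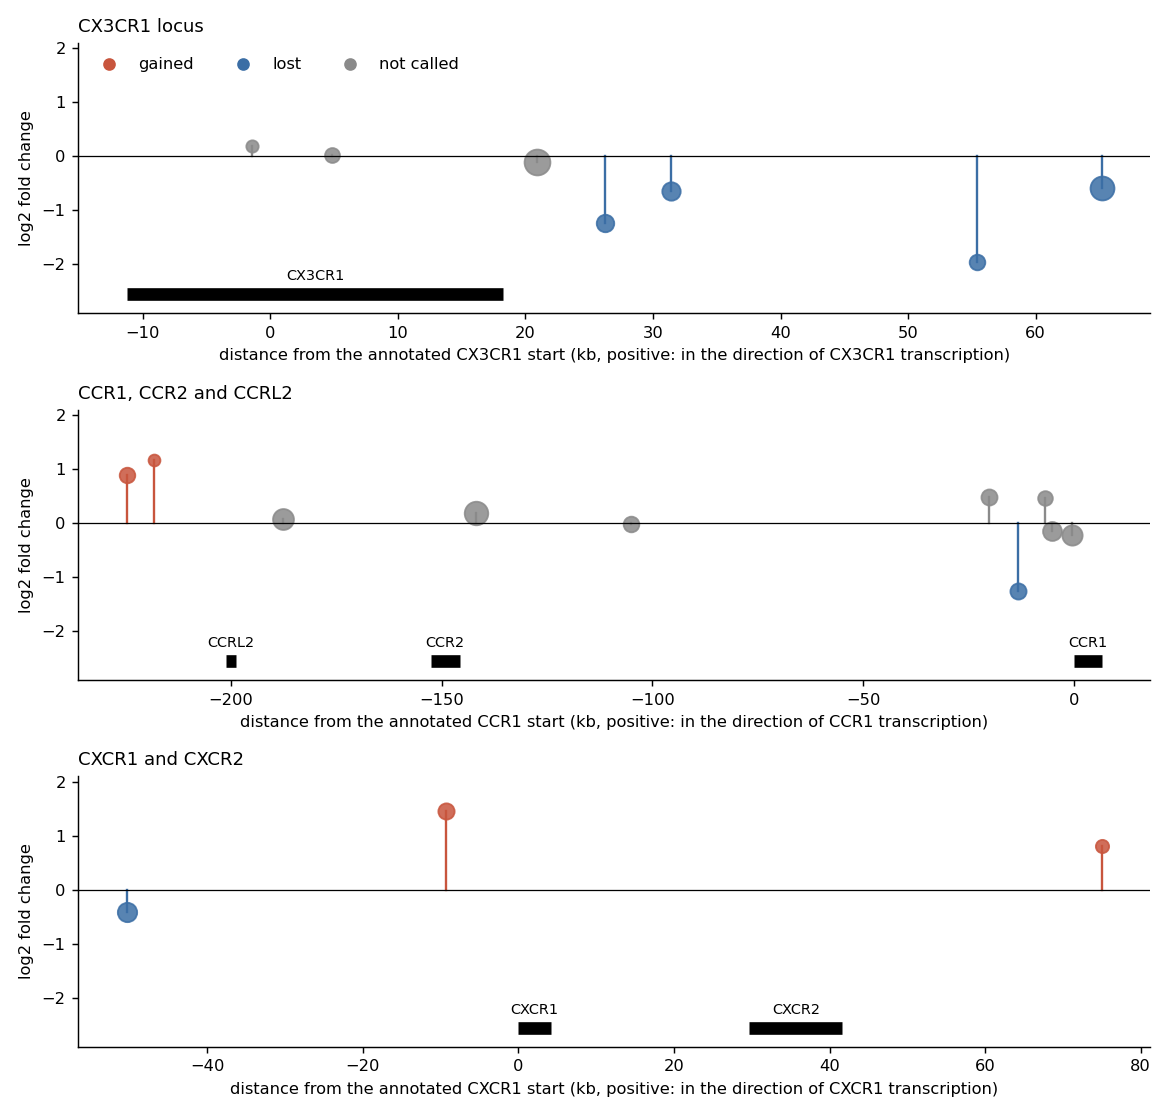
Log2 fold change of each peak (y axis) by its distance in kb from the annotated start of CX3CR1, CCR1 or CXCR1 (x axis, positive in the direction of transcription of that gene); dots grow with the mean normalised count and black bars are gene spans. At CX3CR1 the 4 lost peaks lie 26.2 to 65.2 kb downstream, and the peaks over and beside the gene are uncalled, with estimates from -0.107 to 0.186. At CCR1 a lost peak stands between uncalled ones.

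The reads of the CX3CR1 locus were also divided differently over its peaks. Summed over the 7 peaks, control libraries held 365.8 to 413.9 normalised reads and knockdown libraries 243.6 to 318.3, a log2 ratio of the means of -0.51. The peak 55.4 kb downstream took 9.32% to 12.2% of these reads in control and 1.12% to 5.54% in knockdown libraries. The uncalled peak next to the end of the gene took 25.5% to 31.7% in control and 31.9% to 45.1% in knockdown libraries, with no overlap. Shares add up to the whole locus, so a share can rise where the count of a peak does not.

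**Figure D3:**
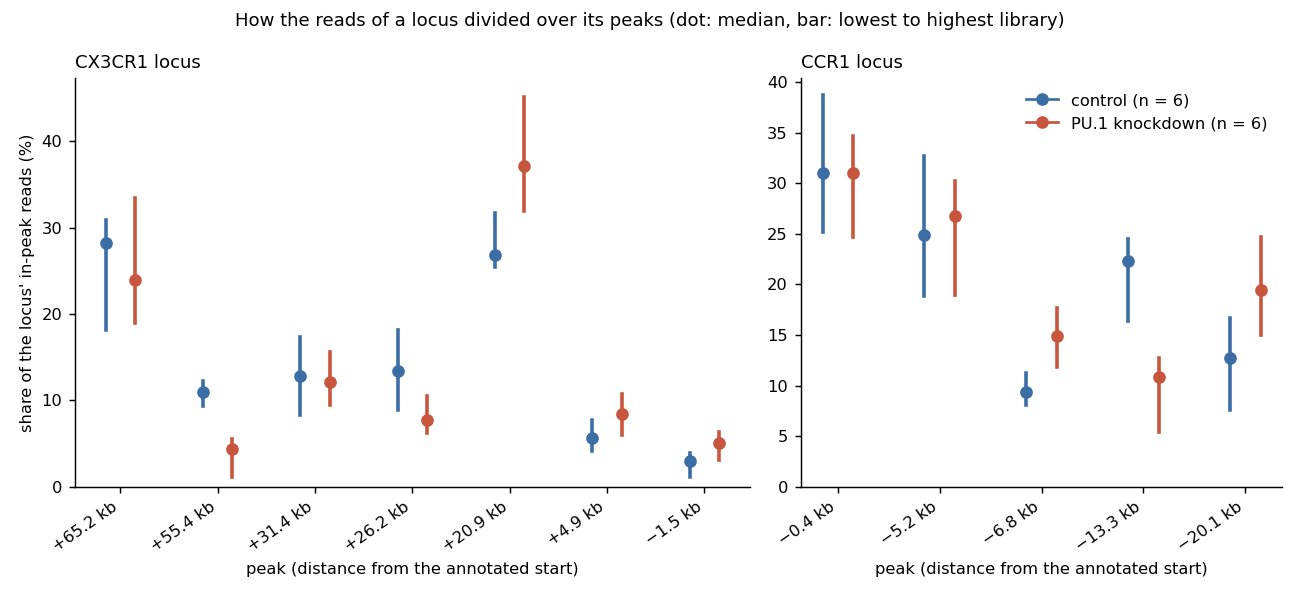
Share of the in-peak reads of the locus (y axis, percent) at each peak of the CX3CR1 and CCR1 loci (x axis); dots are medians and bars run from the lowest to the highest of 6 control or 6 knockdown libraries. The CX3CR1 peak at 55.4 kb goes from a median of 11.0% to 4.38% and the CCR1 peak at 13.3 kb from 22.3% to 10.9%.

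CCR1, a receptor for inflammatory chemokines such as CCL3 and CCL5, had 5 peaks, of which 1 was lost. This peak lay 13.3 kb upstream of the start (chr3:46221187-46222010, 824 bp) and within the span of CCR3, the eotaxin receptor gene next to it. Control libraries held 32.3 to 46.3 reads (median 42.5) and knockdown libraries 9.5 to 22.3 (median 17.5). The groups did not overlap in either batch. The mean fell from 41.4 ± 5.43 (SD, n = 6) to 17.0 ± 5.34 (SD, n = 6), a log2 fold change of -1.26 (SE 0.22, DESeq2 adjusted p = 1.2e-07).

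At the CCR1 start itself, the peak that covers the first printed sequence (chr3:46208160-46209253, 1094 bp) was not called. It held 49.3 to 71.1 reads (median 59.3) in control and 41.0 to 61.2 (median 51.8) in knockdown libraries, and the ranges overlapped over most of their length. The log2 fold change was -0.21 (SE 0.16, 95% interval -0.52 to 0.09, DESeq2 adjusted p = 0.279). The other 3 peaks, 5.2, 6.8 and 20.1 kb upstream and all within the CCR3 span, had log2 fold changes of -0.15, 0.47 and 0.475 with adjusted p-values of 0.549, 0.108 and 0.0714 (DESeq2). Neighbours of the lost peak on both sides thus had estimates above 0 without a call, and edgeR called the one 20.1 kb upstream (adjusted p = 0.0382). The lost peak gave 16.4% to 24.5% of the reads of the locus in control and 5.44% to 12.7% in knockdown libraries.

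CCR2, the receptor for the monocyte attractant CCL2, had 3 peaks and no call. The strongest, 4.0 kb upstream of the start (chr3:46349414-46350756, 1343 bp), held 67.0 to 91.9 reads (median 77.8) in control and 81.6 to 99.1 (median 83.5) in knockdown libraries. The ranges overlapped, and the log2 fold change was 0.18 (SE 0.13, 95% interval -0.08 to 0.43, DESeq2 adjusted p = 0.274). The peak 40.7 kb upstream had means of 27.3 in control and 26.2 in knockdown libraries (log2 fold change -0.02, SE 0.21). The third lay within 50 kb of both CCR2 and CCRL2, 11.2 kb upstream of CCRL2 in the antisense gene CCR5AS, with means of 60.1 and 61.6 (log2 fold change 0.07, SE 0.15).

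CCRL2 had 2 further peaks, and both were gained. They lay downstream of the gene, towards LTF, which encodes lactotransferrin, an iron-binding protein of neutrophil granules. The peak 25.7 kb from the CCRL2 start and 2065 bp from LTF (chr3:46432432-46433580, 1149 bp) held 14.1 to 25.3 reads (median 17.8) in control and 30.6 to 38.2 (median 33.6) in knockdown libraries. Every knockdown library lay above every control library. The log2 fold change was 0.89 (SE 0.22, DESeq2 adjusted p = 4.0e-04). The peak 19.4 kb from the start and 8716 bp from LTF (chr3:46426390-46426929, 540 bp) was far weaker, at 2.34 to 10.5 reads (median 5.85) in control and 9.5 to 18.5 (median 15.2) in knockdown libraries. The groups overlapped slightly, in batch 2, and the log2 fold change was 1.17 (SE 0.37, DESeq2 adjusted p = 0.0051).

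CXCR1 and CXCR2 stand side by side on chromosome 2 and had 3 peaks between them, all of them called. The peak 9.3 kb upstream of the CXCR1 start (chr2:218175938-218176530, 593 bp, between genes) is within 50 kb of both receptors and showed the strongest gain by fold. Control libraries held 11.6 to 19.1 reads (median 15.4) and knockdown libraries 28.3 to 65.3 (median 41.7). The groups were well apart in both batches. The mean rose from 15.3 ± 3.17 (SD, n = 6) to 44.3 ± 13.4 (SD, n = 6), a log2 fold change of 1.46 (SE 0.24, DESeq2 adjusted p = 2.5e-08), or 2.75-fold.

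The other 2 calls beside these receptors were less firm and lay next to other genes. The peak 34.1 kb upstream of CXCR2 and 1045 bp from RUFY4 (chr2:218091697-218092228, 532 bp) held 4.61 to 19.1 reads (median 11.7) in control and 15.5 to 27.1 (median 19.3) in knockdown libraries. Its log2 fold change was 0.81 (SE 0.30, DESeq2 adjusted p = 0.0199), and the groups overlapped in batch 2. The call held in 7 of the 12 fits that left out 1 library each, with an adjusted p of up to 0.0848. The peak 50.3 kb upstream of the CXCR1 start covered the annotated start of ARPC2, a subunit of the actin-branching Arp2/3 complex (chr2:218216492-218218098, 1607 bp). It held 48.4 to 74.1 reads (median 51.6) in control and 34.5 to 48.4 (median 42.0) in knockdown libraries, and within each batch the knockdown libraries were the lower ones. Its log2 fold change was -0.41 (SE 0.17, DESeq2 adjusted p = 0.0365), and the call held in 3 of the 12 such fits, with an adjusted p of up to 0.146.

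**Figure D4:**
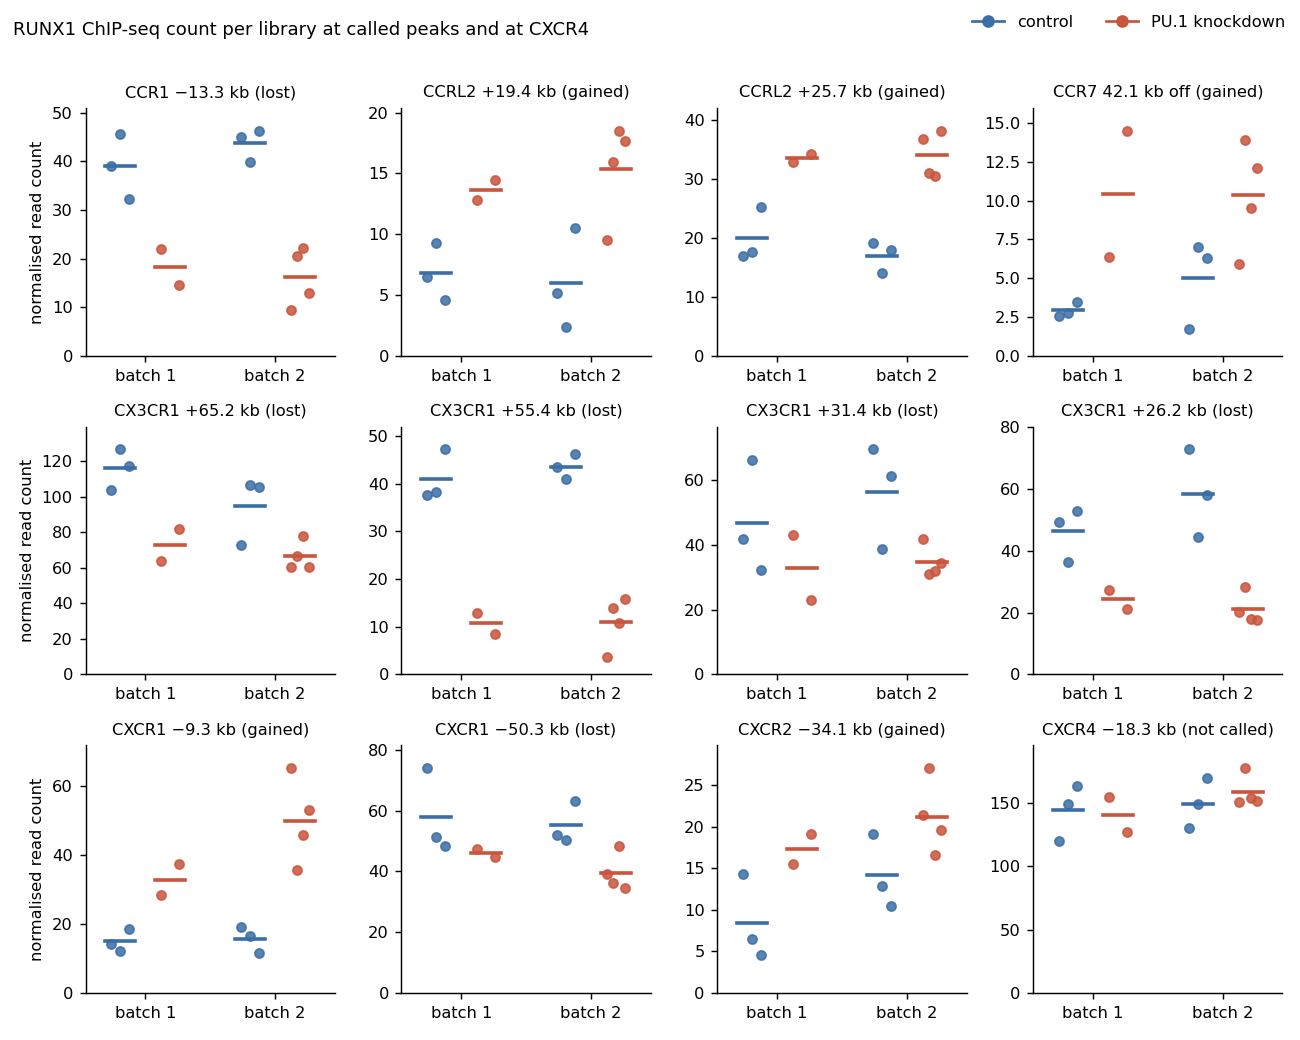
Normalised read count (y axis) of each library at the 11 called peaks and at the peak of CXCR4, by batch (x axis); each point is 1 library and horizontal lines are the means per group and batch. Control and knockdown points separate fully at CCR1 13.3 kb upstream, CX3CR1 55.4 kb and 26.2 kb downstream, CCRL2 25.7 kb downstream and CXCR1 9.3 kb upstream, and they mix at CXCR4.

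CCR7 had 2 peaks, both distant from the gene and nearer to TNS4, the gene of a focal adhesion protein. The strand of CCR7 was not listed, so distances are from its nearer end. The peak 42.1 kb away (chr17:40511204-40511657, 454 bp) was called gained but held few reads, 1.73 to 7.03 (median 3.12) in control and 5.94 to 14.5 (median 10.8) in knockdown libraries, from 1 to 22 raw reads per library. Its log2 fold change was 1.34 (SE 0.46, DESeq2 adjusted p = 0.0109), and without knockdown replicate 2 it was 1.02 with an adjusted p of 0.102. The peak 36.2 kb away (chr17:40516400-40517541, 1142 bp, in the non-coding gene LOC105371773) held 48.4 to 81.9 reads (median 53.8) in control and 63.2 to 82.9 (median 72.7) in knockdown libraries. It was not called (log2 fold change 0.33, SE 0.15, DESeq2 adjusted p = 0.0606), while edgeR called it (adjusted p = 0.0277), as did DESeq2 without control replicate 1 (log2 fold change 0.45, adjusted p = 0.0098).

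CXCR4, the receptor for CXCL12, had 1 peak, 18.3 kb upstream of the most upstream start (chr2:136135574-136137291, 1718 bp). It held more reads than any other member peak and, by read count without regard to width, stood at the 98.4th percentile of all peaks. Control libraries held 119.6 to 169.6 reads (median 148.9) and knockdown libraries 127.1 to 177.7 (median 152.8). The ranges were nearly the same. The log2 fold change was 0.02 (SE 0.11, DESeq2 adjusted p = 0.888). Its 95% interval of -0.185 to 0.23 leaves out the estimate of each of the 11 called peaks. It overlaps the intervals of the peaks 50.3 kb upstream of CXCR1 (-0.734 to -0.0811) and 34.1 kb upstream of CXCR2 (0.221 to 1.4). The peaks were not tested against each other.

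The effect of the knockdown was then compared between the batches. The log2 fold change had the same sign in both batches at 16 of the 23 members, against 80.0% of all peaks. Among called peaks, which were chosen by a fit over both batches, the sign was the same at all 11 members and at 99.9% in the whole set, so nothing is read from it. Across the 23 peaks the 2 batches' log2 fold changes gave a Pearson r of 0.879 and a Spearman rho of 0.824, as a description of peaks that share libraries. In batch 1 alone DESeq2 called 0 members gained and 1 lost, against 5.38% and 6.61% of all peaks. At an unadjusted DESeq2 p under 0.05, 2 members were higher and 4 lower in that batch, against 12.1% and 12.6% of all peaks. By edgeR 2 were gained and 5 lost, against 13.2% and 14.1%. In batch 2 alone DESeq2 called 2 gained and 5 lost, against 12.8% and 13.1%. The peak 55.4 kb downstream of CX3CR1 was called in both, with log2 fold changes of -1.95 and -1.94 (DESeq2 adjusted p = 8.2e-04 and 6.7e-07). The knockdown libraries lay beyond all control libraries of their batch, in the same direction in both batches, at 6 members (2 above and 4 below), against 28.3% of all peaks.

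By DESeq2 0 members differed between the batches after adjustment, as did 0 of all peaks (0.00% called), and edgeR also gave 0 members. Batch 1 held 2 knockdown libraries, and the SE of the difference between batches ran from 0.228 to 0.971 over the members. The test could thus miss sizeable differences, and 0 calls do not show that the batches were alike. Without adjustment the interaction of genotype and batch had a DESeq2 p under 0.05 at 2 members, against 2.51% of all peaks, and by edgeR also at 2. These were the CCR1 peak 5.2 kb upstream (log2 fold change -0.63 in batch 1 and 0.21 in batch 2) and the CX3CR1 peak next to the end of the gene (-0.43 and 0.14). Neither was called over both batches.

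**Figure D5:**
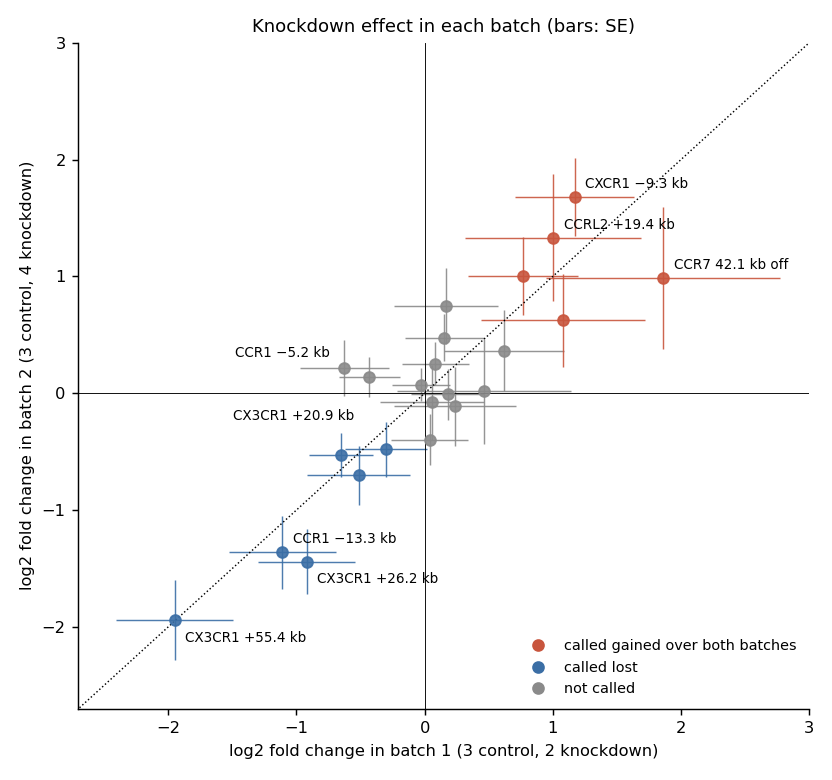
Log2 fold change of each of the 23 peaks in batch 1 (x axis) and batch 2 (y axis), each from a fit within that batch, with bars of 1 SE and a dotted line where both are equal. The 11 called peaks lie in the quadrants of equal sign, and the CCR1 peak 5.2 kb upstream and the CX3CR1 peak 20.9 kb downstream have opposite signs.

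The calls were also counted by distance from genes. Within 10 kb of a member gene 2 of 9 peaks were called, and beyond it 9 of 14. With any protein-coding gene counted, 9 of 17 peaks within 10 kb of one were called and 2 of 6 farther away. The like shares of the whole peak set were 39.1% within 10 kb and 49.7% farther away. They are no reference for the split by member genes, so nothing is read from that split. The nearest protein-coding gene was a member for 11 of the 23 peaks, of which 3 were called (the CX3CR1 peaks 26.2 and 31.4 kb downstream and the CXCR1 peak 9.3 kb upstream), and another gene for 12 peaks, of which 8 were called. The peaks are assigned by distance, and which gene each of them regulates was not tested. The uncalled members had a median of 51.0 normalised reads and the called ones 29.2, and the uncalled estimates ran from -0.21 to 0.475.

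Other gene groups of the same pathway were read from the same fit. Of 15 further chemokine receptor genes, 12 had a peak within 50 kb, with 29 peaks beside 9 that they shared with the members. Of these 29, 9 were gained and 8 lost (58.6% called, median log2 fold change 0.07). The call with the smallest adjusted p lay within XCR1, the receptor for the chemokine XCL1 (chr3:46017376-46018260), and rose from 31.6 ± 4.61 to 97.8 ± 6.02 (SD over 6 libraries each), a log2 fold change of 1.63 with an SE of 0.16 (DESeq2 adjusted p = 3.7e-22). Receptors for other attractants, such as formyl peptides, complement and lipids, had 48 peaks, of which 13 were gained and 11 lost (median 0.07). Their leading call was within FPR3, a formyl peptide receptor (chr19:51824205-51825332), which fell from 52.6 ± 11.6 to 10.3 ± 2.68, a log2 fold change of -2.30 with an SE of 0.24 (DESeq2 adjusted p = 7.2e-20). The genes through which these receptors signal had 114 peaks, of which 21 were gained and 27 lost (42.1% called, median -0.11). Here the leading call was within PREX1, an activator of the GTPase Rac (chr20:48787640-48788526), with a fall from 101.9 ± 9.67 to 32.8 ± 5.56, a log2 fold change of -1.58 with an SE of 0.15 (DESeq2 adjusted p = 1.2e-24). Each list was called in both directions, as the whole table was (42.0% called, 21.3% gained and 20.7% lost).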

How the data were processed

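RUNX1 ChIP-seq libraries of THP-1 cells (6 control, 6 knockdown) were compared. Per the study's methods and the submitters' processing notes, the authors aligned reads with Bowtie2, removed duplicates, called peaks with MACS2 per condition and batch, kept peaks reproducible between batches, merged them and counted reads with featureCounts. Tool versions are not given in the sources used here. What the authors deposited are unnormalised counts, 1 per peak and library. The deposited table gives peak widths (bp) as other information. Peak calling used the same libraries as the comparison. The notes list GRCm38 and GRCh38. The coordinates were taken as GRCh38, since 19.8% of peaks held an annotated RefSeq start, against 1.39% to 1.86% after shifts of 100 kb or 1 Mb.

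Counts were fitted with DESeq2 1.42.0 in R 4.3.3 (median-of-ratios size factors, batch as covariate) over all 26642 peaks, also within each batch and with a genotype by batch term. The interval of a fold change is 1.96 SE on either side. Named were, for each gene, the peak nearest its start, the strongest peak and every called peak, and for each comparison list its leading call. The members and lists were chosen with earlier results of these data known. Alternatives were the quasi-likelihood test of edgeR 4.0.16, TMM or total-count scaling, no batch term, a replicate block, a mean count of at least 10, no independent filtering, stricter thresholds, fold changes centred on the median of 10 Mb windows, other distances and leaving out each library. The fits were tested on simulated counts with 200 changed peaks. These held no batch effect and far fewer changed peaks than were called in the data, so they do not show how the fits perform on data like these.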

Additional observations from a re-analysis of the deposited data

Results flagged for a closer look

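The peak 36.2 kb from CCR7 was singled out because 1 library stood far from the rest of its group. Control replicate 1 held 81.9 normalised reads (63 raw reads) there, against 48.4 to 56.3 in the other 5 control libraries, a gap of 0.764 of the whole range. The search covered 46 groups of 6 libraries, in which chance gives about 2.3 such values. The peak was not called with this library and was called without it (DESeq2 adjusted p = 0.0606 and 0.0098). The cause was not tested.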

How the results depend on the processing

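When the log2 fold changes of the 23 peaks were recomputed, 411 values kept their side of the threshold, 17 lost a call and 8 gained one. Where called, 0 changed sign. Some uncalled estimates did change sign, such as that 5.2 kb upstream of CCR1 (-0.146, and 0.0134 without knockdown replicate 2). The count of called members was 10 to 13 under the other tools, size factors, models and filters, among them 10 with the replicate block (5 gained, 5 lost), and 8 to 11 without 1 library, the 8 (3 gained, 5 lost) without knockdown replicate 2. It was 8 at an adjusted p under 0.01, 6 at a fold change over 2 (17.1% of all peaks), 2 of 9 peaks in a window of 10 kb, 24 of 42 in a window of 100 kb, and 3 of 11 where the nearest protein-coding gene was a member, a rule added after the data were seen. At a fold change over 2, 9 of the peaks near other chemokine receptors, 8 near other attractant receptors and 23 near signalling genes were called. Leaving out 1 library gave 15 to 18, 18 to 25 and 39 to 48 calls for these lists. In batch 1 edgeR called 7 members, and 0 to 1 were called by DESeq2 without 1 library, 0 without knockdown replicate 2. In batch 2 edgeR called 11, an adjusted p under 0.01 left 4, and 4 to 7 were called without 1 library, 4 without knockdown replicate 6. The median log2 fold change of the members ran from -0.0053 to 0.077 without 1 library. The replicate numbers did not pair the libraries (correlations of deviations -0.09 to 0.23, and 1 of 6 correlated best with its own number), and with the block the peak 50.3 kb upstream of CXCR1 was no longer called (DESeq2 adjusted p = 0.0729), nor was it after centring on 10 Mb windows (0.0998). The 36.2 kb peak of CCR7 was called with TMM size factors, total counts and no batch term (adjusted p = 0.0486, 0.041 and 0.0454), and the cause was not tested. Depth limits the other CCR7 peak, which a mean count of at least 10 left out.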
